A study of Mus musculus with 27 samples.

Results

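The genes described here are the 3 SoxC transcription factors Sox4, Sox11 and Sox12 and the 3 Onecut transcription factors Onecut1, Onecut2 and Onecut3, in the retina and visual brain of the mouse. They were chosen by gene symbol, with all transcripts of a symbol summed, and make up 6 of the 30735 genes in the deposited table. SoxC proteins bind DNA through a high-mobility-group box and act in newly born neurons, where they switch on genes of the neuronal cytoskeleton and of axon growth. In the retina, Sox4 and Sox11 are needed together for the formation of ganglion cells (RGCs), which send their axons through the optic nerve. Onecut proteins carry a cut domain and a homeodomain. Onecut1 and Onecut2 act in retinal precursors downstream of the progenitor state, and are known for the genesis of horizontal cells and for roles in ganglion cells, cones and amacrine cells.

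The libraries came from C57Bl/6 mice in which alkaline phosphatase (AP) had been knocked into the Brn3a (Pou4f1) or the Brn3b (Pou4f2) locus, so that every retinal library, controls included, carries 1 AP allele. In HET mice the other allele is wild type (AP/WT), and in KO mice it is null (AP/KO). Dissociated retinal cells were bound to beads with an antibody against AP. The bound fraction, called RGC in the labels and AP-positive here, was sequenced at postnatal day 3 (P3) for both loci, each as HET and as KO, and at embryonic day 15 (E15) for the Brn3b locus only, again as HET and KO, with 2 libraries per group. The unbound supernatant (SN) has 1 library for each of these 6 combinations. Wild-type brain at P3 gave 3 libraries of the superior colliculus (SC), 3 of the lateral geniculate nucleus (LGN), 1 of the pretectal area (PTA) and 2 of the remaining brain. Because AP marks the cells in which the targeted locus is active, the cells bound in Brn3a and in Brn3b mice need not be the same ones, and in KO retinas they are cells that lack the factor. Nothing in the labels says whether libraries of a group came from different animals, so the p-values measure the spread between these libraries. SN libraries were pooled by age, so their spread includes genotype and, at P3, the targeted locus. P3 SN libraries come from both loci, and E15 SN libraries from Brn3b mice only.

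Values are CPM, estimated counts scaled to library size, and levels of different genes are compared only as TPM, which also divides by transcript length. Retinal libraries ranged from 28905675 to 37394655 estimated counts and brain libraries from 10122962 to 13769685, and the 2 tissues were sequenced in different ways and were not tested against each other. Pou4f1 fell to 13.8 CPM from 465 CPM in Brn3a KO against HET AP-positive cells, and Pou4f2 to 19.8 from 240 CPM in Brn3b KO at P3 and to 64.4 from 274 CPM at E15. Brn3a KO replicate 2 carries a genotype entry for Brn3b, against its title. It had 11.0 CPM of Pou4f1 and 268 CPM of Pou4f2, as the title has it, and replicate 1 had 16.7 CPM of Pou4f1. Source names of several Brn3b and E15 libraries also name another gene or age than their titles, which were followed here. RGC markers (10 genes) summed to 6612 and 7047 CPM in Brn3a HET and 2745 and 3954 CPM in Brn3b HET at P3, but only 793 and 1096 CPM in Brn3b KO, against 316 to 788 CPM in P3 SN. Microglia and macrophage markers (9 genes) summed to 567 to 3427 CPM in AP-positive libraries and 7.85 to 24.0 CPM in SN. In these bulk samples fewer cells of a type and less RNA per cell cannot be told apart.

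None of the 6 genes overlaps another gene of the deposited annotation (GRCm38). The positions given here leave out Onecut2. They are Sox4 at chr13:28948919-28953713 (minus strand), Sox11 at chr12:27334264-27342574 (minus), Sox12 at chr2:152393611-152398063 (minus), Onecut1 at chr9:74861921-74891781 (plus) and Onecut3 at chr10:80494835-80517276 (plus). Sox4 and Sox11 each have a single transcript in the table, and so has Onecut3. The 2 Onecut2 transcripts differ by 2 bases in length (13391 and 13389), and shared the counts almost evenly in the retina, with 47.7 to 55.8% for the longer one. For Sox12 the longer of 2 transcripts (4453 and 4169 bases) held a median of 95.9% of the counts over retinal libraries, with a range of 38.5 to 99.6%, so the split between them is uncertain and only the sum is used.

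Onecut2 and Onecut3 are left out of the sequences below. The 250 bases before the start are shown for Sox4, Sox11, Sox12 and Onecut1, the other 4 members, so that their base composition can be compared. They were read from the RefSeq table of promoters (GRCm38.p6), run 5′ to 3′ on the gene's strand, and have each CG dinucleotide in capitals. The stretches are chr13:28953700-28953949 for Sox4, chr12:27342719-27342968 for Sox11 and chr2:152398047-152398296 for Sox12, all on the minus strand, and chr9:74861671-74861920 for Onecut1 on the plus strand.
Sox4: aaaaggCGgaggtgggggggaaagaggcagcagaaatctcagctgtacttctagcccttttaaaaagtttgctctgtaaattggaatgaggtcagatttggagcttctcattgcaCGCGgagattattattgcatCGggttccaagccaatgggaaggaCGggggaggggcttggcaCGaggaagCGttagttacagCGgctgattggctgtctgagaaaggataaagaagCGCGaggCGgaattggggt
Sox11: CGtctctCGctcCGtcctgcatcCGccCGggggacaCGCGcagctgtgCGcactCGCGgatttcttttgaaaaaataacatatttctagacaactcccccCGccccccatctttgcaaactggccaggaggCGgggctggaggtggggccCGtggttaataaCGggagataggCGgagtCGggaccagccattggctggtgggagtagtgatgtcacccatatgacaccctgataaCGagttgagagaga
Sox12: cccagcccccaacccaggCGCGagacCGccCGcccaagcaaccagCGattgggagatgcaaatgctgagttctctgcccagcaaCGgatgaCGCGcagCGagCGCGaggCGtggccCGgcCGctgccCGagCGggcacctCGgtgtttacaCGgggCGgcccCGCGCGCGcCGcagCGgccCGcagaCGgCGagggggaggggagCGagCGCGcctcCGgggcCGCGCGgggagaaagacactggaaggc
Onecut1: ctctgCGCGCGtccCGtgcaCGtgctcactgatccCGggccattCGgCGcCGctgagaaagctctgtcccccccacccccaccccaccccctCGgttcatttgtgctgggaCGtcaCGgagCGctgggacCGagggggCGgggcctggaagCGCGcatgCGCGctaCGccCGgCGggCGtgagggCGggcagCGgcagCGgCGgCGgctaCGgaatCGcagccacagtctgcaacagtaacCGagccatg

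The Sox12 and Onecut1 stretches were the richest in C and G, with 74.4% and 71.6% GC and 35 and 31 CG dinucleotides. Sox11 had 58.0% GC and 17 CG dinucleotides, and Sox4 50.8% and 11, against medians of 52.4% and 6 over 32851 promoter stretches of the same length. Cores bound by these families were searched on both strands: ATCAAT for Onecut proteins, ACAAAG and ACAATA for Sox proteins, and TAATTA for POU and other homeodomain proteins. None of the 4 occurred in any of the 4 stretches, where 6.72%, 16.5%, 8.17% and 4.84% of all promoter stretches hold them. The absence of these letters from the window is a description of the sequence only.

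Per length, Sox4 was by far the most abundant of the 6 genes. Its level was 185 to 616 TPM over the 18 retinal libraries and 143 to 204 TPM over the 9 brain libraries, and among the 19 numbered Sox genes in the table it ranked first in 24 of 27 libraries. Sox11 was at 115 to 179 TPM in the 6 E15 libraries and 24.8 to 54.9 TPM in the 12 P3 retinal libraries. Sox12 was at 37.4 to 84.4 TPM in the retina and 40.9 to 60.8 TPM in the brain, the smallest ratio of highest to lowest level among the 6 genes in the retina. Sox4 therefore made up 62.0 to 71.2% of SoxC transcripts at E15 and 71.3 to 81.5% at P3 in the retina, while the Sox11 share was 19.0 to 27.4% at E15 and 7.12 to 10.6% at P3.

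Each Onecut gene was below each SoxC gene in mean level per length. Onecut1 stood at 14.01 to 28.5 TPM and Onecut2 at 8.95 to 31.4 TPM at E15, and at 1.45 to 13.8 TPM and 2.19 to 9.93 TPM at P3 in the retina. Onecut3 did not exceed 11.3 TPM in any library. Onecut1 was above Onecut2 per length in both Brn3b HET E15 AP-positive libraries, with Onecut2 to Onecut1 ratios of 0.787 and 0.597. The ratio was 1.45 and 1.96 in the corresponding KO libraries, and it was 0.579 and 0.655 in E15 SN. This ratio was noticed in the data and was not tested.

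**Figure D1:**
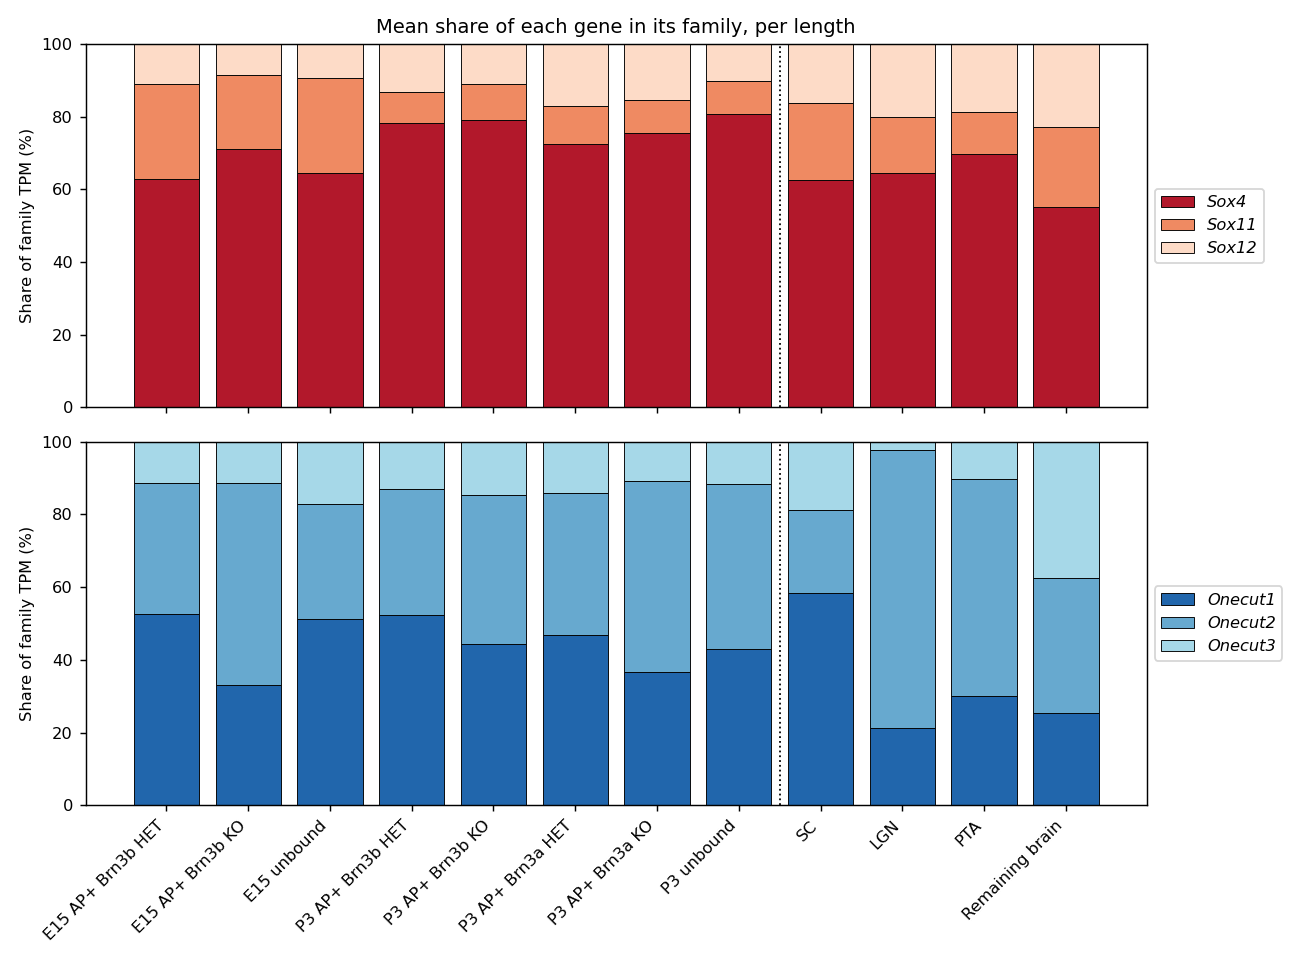
Mean share (%) of each gene in the summed TPM of its family, SoxC above and Onecut below, for retinal groups (left of the dotted line, E15 and P3, AP+ being the AP-positive fraction) and brain regions. The Sox11 segment is larger at E15 than in the P3 retina, and Onecut2 takes 67.5 to 82.97% of Onecut transcripts in LGN.

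From E15 to P3, Sox11, Onecut1 and Onecut2 fell in Brn3b HET AP-positive cells, in Brn3b KO AP-positive cells and in the unbound retina. Sox4 fell in both AP-positive comparisons by less than 2 times and did not pass the test in SN, and Sox12 passed in none of the 3. Onecut3 fell in SN, where it passed the test, and had lower means at P3 in both AP-positive comparisons without passing.

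Sox11, a factor of early neuronal differentiation, had 901 and 677 CPM in the Brn3b HET libraries at E15 and 123 and 159 CPM at P3. In Brn3b KO it had 814 and 893 CPM at E15 and 217 and 237 CPM at P3. In SN it had 615 and 717 CPM at E15 and 153, 211, 215 and 234 CPM at P3. Every E15 library was above every P3 library. The fall was 5.56-fold in Brn3b HET (log2 fold change -2.48 ± 0.18 SE, edgeR adjusted p = 5.6e-05), 3.71-fold in Brn3b KO (-1.89 ± 0.17, adjusted p = 0.00014) and 3.28-fold in SN (-1.71 ± 0.16, adjusted p = 8.1e-06).

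Onecut1, which acts early in horizontal cell and ganglion cell genesis, had 58.9 and 49.4 CPM in Brn3b HET at E15 and 14.9 and 28.4 CPM at P3. In Brn3b KO the values were 49.4 and 33.3 CPM at E15 and 9.98 and 14.2 CPM at P3. In SN they were 38.6 and 61.7 CPM at E15 and between 7.49 and 9.41 CPM in the 4 P3 libraries. The ages did not overlap in any of these fractions. The log2 fold changes were -1.31 ± 0.34 in HET (adjusted p = 0.019), -1.76 ± 0.35 in KO (adjusted p = 0.0057) and -2.62 ± 0.27 in SN (adjusted p = 2.0e-05). The HET call was lost without either Brn3b HET P3 replicate 1 (-0.92, adjusted p = 0.12) or Brn3b HET E15 replicate 1 (-1.19, adjusted p = 0.069), and the KO call without Brn3b KO P3 replicate 1 (-1.55, adjusted p = 0.051).

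Onecut2, the closest relative of Onecut1 in retinal function, fell along with it. Its levels were 161 and 114 CPM in Brn3b HET and 251 and 221 CPM in Brn3b KO at E15, against 30.7 and 69.2 CPM and 36.6 and 42.6 CPM at P3. In SN the E15 libraries had 77.3 and 149 CPM and the P3 libraries 24.7 to 34.5 CPM. The E15 values lay above the P3 values in all 3 fractions. The log2 fold changes were -1.45 ± 0.33 in HET (adjusted p = 0.0099), -2.55 ± 0.34 in KO (adjusted p = 0.00073) and -1.89 ± 0.28 in SN (adjusted p = 0.00027).

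Onecut3, the least abundant member, had 11.1 to 24.6 CPM in the 4 AP-positive libraries at E15 and 3.95 to 9.75 CPM in the 4 of Brn3b mice at P3. The log2 fold change was -1.78 ± 0.67 in Brn3b KO (adjusted p = 0.080) and the adjusted p was 0.21 in Brn3b HET. In SN it had 13.1 and 32.4 CPM at E15 and 1.32 to 4.39 CPM at P3, a 7.91-fold fall (-2.98 ± 0.58, adjusted p = 0.0016).

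Sox4 had 1272 and 915 CPM in Brn3b HET at E15 and 796 and 712 CPM at P3, a log2 fold change of -0.53 ± 0.17 (adjusted p = 0.041). In Brn3b KO it had 1759 and 1671 CPM at E15 and 1073 and 1028 CPM at P3 (-0.69 ± 0.17, adjusted p = 0.015). These ranges did not overlap, but the HET call was lost without Brn3b HET P3 replicate 1 or 2 or Brn3b HET E15 replicate 1 (adjusted p from 0.091 to 0.22), and the KO call without any one of its 4 libraries (adjusted p from 0.055 to 0.082). In SN, Sox4 was at 823 and 1074 CPM at E15 and 961 to 1157 CPM at P3, ranges that overlapped (adjusted p = 0.48). Sox12 went from 194 and 158 CPM to 119 and 115 CPM in Brn3b HET (-0.58 ± 0.20, adjusted p = 0.055) and from 224 and 162 CPM to 149 and 123 CPM in Brn3b KO (-0.48 ± 0.20, adjusted p = 0.11). Without leaving genes of low count out of the fit, the HET difference of Sox12 passed (adjusted p = 0.045).

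In all, 4 of the 6 genes were lower at P3 in Brn3b HET, where 12.3% of 16673 genes tested were lower, and 4 of 6 in Brn3b KO, where 11.1% were. In SN, 4 of 6 were lower, against 17.5% of 16954 genes. The ages did not overlap for 63.5% of all genes in HET, 66.7% in KO and 49.7% in SN. The median log2 fold change of the 6 genes was -1.25, -1.77 and -1.80 in the 3 comparisons, where the median of all genes tested was 0.01, 0.03 and -0.02. The marker lists moved as well: RGC markers summed to 2851 and 5265 CPM in Brn3b HET at E15 and 2745 and 3954 CPM at P3, progenitor and Mueller glia markers to 1386 and 3708 CPM at E15 and 529 and 759 CPM at P3, and cell cycle markers ranged from 643 to 1639 CPM in E15 and from 155 to 1339 CPM in P3 AP-positive libraries. Their part in the age differences was not tested.

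**Figure D2:**
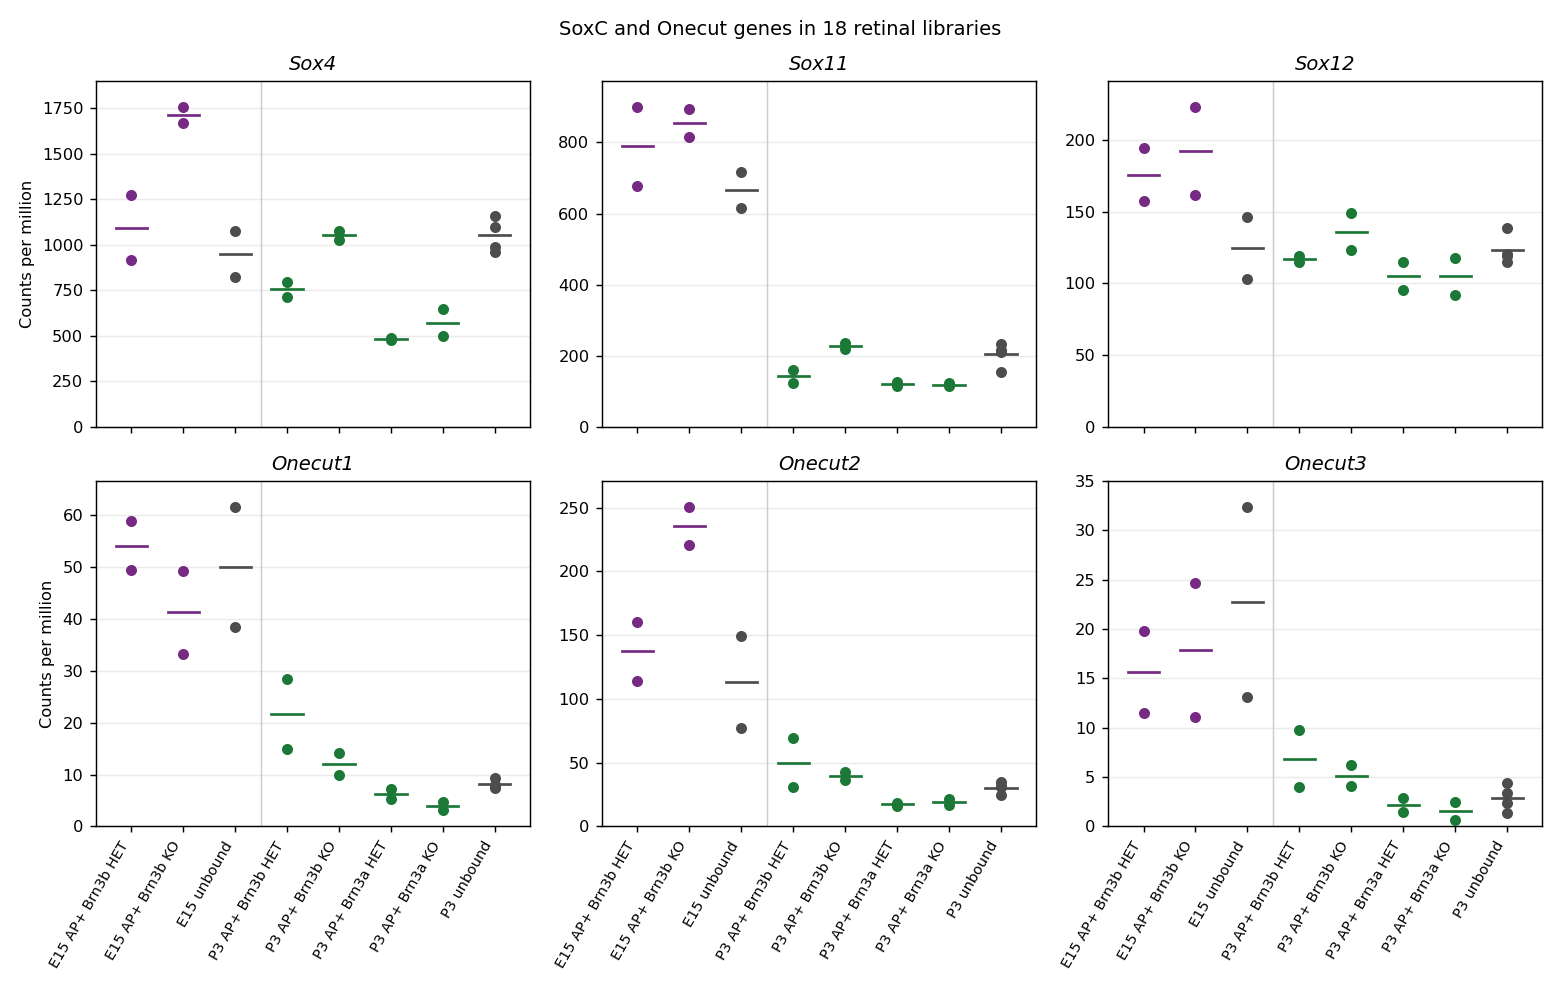
Level of each gene (CPM, linear axes from 0) in the 18 retinal libraries, 1 point per library and a line at the group mean, with E15 groups left and P3 groups right of the grey line and AP+ standing for the AP-positive fraction. Sox11 and the Onecut genes are lower in every P3 group, and Sox4 at P3 is lowest in Brn3a HET (474 and 489 CPM) and highest in SN and Brn3b KO.

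Of 6 listed targets of SoxC factors, 4 were lower at P3 in Brn3b HET and 0 higher (list median -1.12), 5 were lower in Brn3b KO (-1.28) and 3 in SN (-0.80). Tubb3, the neuronal beta-tubulin, fell by 1.51 on the log2 scale in HET, by 2.65 in KO and by 1.39 in SN (adjusted p = 0.0069, 0.00053 and 0.0017), and Stmn1, a regulator of microtubule assembly, fell by 1.06, 1.05 and 0.86. Plxna1, a semaphorin co-receptor, was lower in KO (-1.50 ± 0.24, adjusted p = 0.0018).

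In the 15-gene RGC fate list, 7 genes were lower and 2 higher at P3 in HET, and 7 lower and 4 higher in KO. Of all genes 16.6% were higher in HET and 14.4% in KO. Atoh7, the proneural factor that makes precursors competent for the ganglion cell fate, fell from a mean of 12.7 to 0.21 CPM in HET (log2 fold change -5.86 ± 0.70, adjusted p = 0.00063), and its log2 fold change in SN was -4.97 ± 0.66. Isl1, a LIM-homeodomain partner of Brn3b, fell by 3.45 in KO and by 2.79 in SN. Tbr1, a T-box factor of ganglion cell subtypes, rose by 6.14 in HET (adjusted p = 7.7e-05). Of the horizontal and amacrine genesis list, 5 of 11 genes were higher at P3 in HET and 1 lower, among them Slc32a1, the vesicular GABA transporter (3.40 ± 0.33, adjusted p = 0.00019). In the cone and photoreceptor list 4 of 7 were higher and 0 lower in HET.

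**Figure D3:**
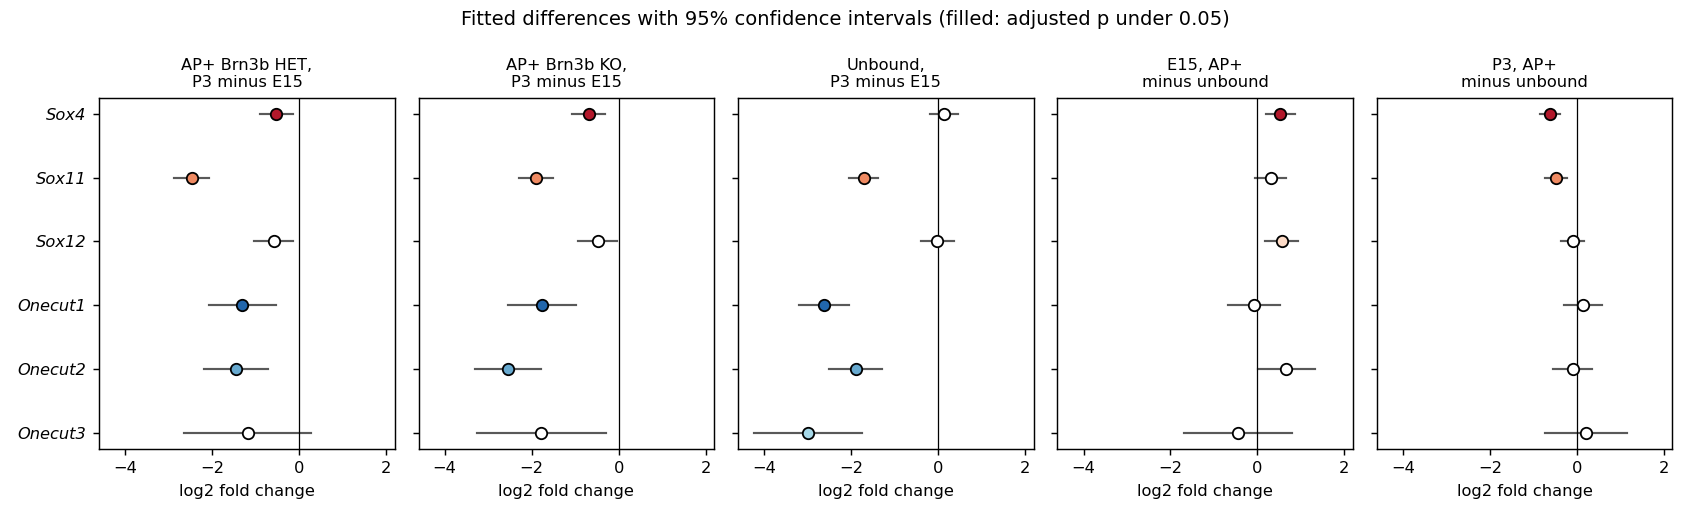
Fitted log2 fold change of each gene with its 95% confidence interval in the 3 comparisons of P3 with E15 and the 2 comparisons of AP-positive with unbound cells. Filled points passed edgeR's test (adjusted p under 0.05), open points did not, and AP+ is the AP-positive fraction. Sox11, Onecut1 and Onecut2 lie left of 0 in all 3 age panels, and Sox4 lies right of 0 at E15 and left of 0 at P3 against unbound cells.

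The comparison of AP-positive with unbound cells asked whether the genes were concentrated in the bound fraction. It averages HET groups with KO groups, whose cells lack the targeted factor. At P3 no gene passed as higher in the 8 AP-positive libraries together: Sox4 and Sox11 were lower, and the other 4 did not pass. At E15 Sox4 and Sox12 were higher in AP-positive cells. These comparisons share libraries with those of age above.

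At P3, Sox4 ranged from 474 to 1073 CPM in 8 AP-positive libraries, with a median of 678, and from 961 to 1157 CPM in the 4 SN libraries. The ranges overlapped through the Brn3b KO libraries (1073 and 1028 CPM), whereas the Brn3a libraries had 474 to 645 CPM and Brn3b HET 712 and 796 CPM. The fitted difference was 1.54-fold lower (log2 fold change -0.62 ± 0.10, adjusted p = 0.00018). Sox11 had 114 to 237 CPM (median 124) against 153 to 234 CPM in SN, which overlapped through both Brn3b KO libraries and through Brn3b HET replicate 2 (159 CPM), and was 1.39-fold lower (-0.48 ± 0.11, adjusted p = 0.0029). Fitted on Brn3a libraries alone, chosen after seeing the data, the differences were -0.88 for Sox4 (adjusted p = 0.0010) and -0.60 for Sox11 (adjusted p = 0.011). On Brn3b libraries alone they were -0.34 and -0.32 and did not pass (adjusted p = 0.16 and 0.17). Onecut2 also passed on Brn3a libraries alone (-0.60, adjusted p = 0.024). Across all genes 27.7% of 16954 were lower in AP-positive cells at P3, so 2 of 6 is near that background.

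Sox12 did not pass at P3, with 92.3 to 149 CPM in AP-positive and 115 to 139 CPM in SN libraries (adjusted p = 0.52). Onecut1 was at 3.23 to 28.4 CPM (median 8.57) against 7.49 to 9.41 CPM, and Onecut2 at 16.0 to 69.2 CPM (median 26.3) against 24.7 to 34.5 CPM. For both, Brn3a AP-positive libraries lay below every SN library and Brn3b HET libraries, with 1 exception, above every SN library, the exception being Onecut2 at 30.7 CPM in Brn3b HET replicate 1. This split by locus was noticed in the data, and the share of all genes that separate in this way was not counted. Adjusted p was 0.58 for Onecut1, 0.72 for Onecut2 and 0.72 for Onecut3.

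At E15, Sox4 had 1272 and 915 CPM (HET) and 1759 and 1671 CPM (KO) in AP-positive cells and 823 and 1074 CPM in SN, a 1.44-fold difference (0.53 ± 0.15, adjusted p = 0.023). Sox12 had 158 to 224 CPM against 103 and 146 CPM, without overlap, as for 40.9% of all genes (0.56 ± 0.18, adjusted p = 0.034). Here 13.4% of all genes were higher in AP-positive cells. Neither call held with the HET AP-positive libraries alone (Sox4 0.21, adjusted p = 0.44; Sox12 0.50, adjusted p = 0.11). Both were also lost without Brn3b HET E15 replicate 1, Brn3b KO E15 replicate 1 or the HET SN library. Onecut2 had 114 to 251 CPM against 77.3 and 149 CPM (0.67 ± 0.30, adjusted p = 0.11), and passed without the KO SN library (1.24, adjusted p = 0.022). Sox11, Onecut1 and Onecut3 overlapped between fractions, with adjusted p of 0.19, 0.86 and 0.61.

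The contrast between fractions differed between ages for all 3 SoxC genes, by -1.15 ± 0.19 for Sox4 (adjusted p = 0.0015), -0.78 ± 0.20 for Sox11 (adjusted p = 0.019) and -0.66 ± 0.22 for Sox12 (adjusted p = 0.048), P3 minus E15. The 3 Onecut genes did not pass. Of all genes 7.77% differed in this direction. All E15 libraries come from Brn3b mice, whereas P3 has both alleles. With Brn3b libraries alone the differences were -0.87, -0.63 and -0.48, and none passed (adjusted p = 0.087, 0.16 and 0.32). Sox11 also failed without the Brn3b HET E15 SN library (adjusted p = 0.099), and Sox12 with RLE scaling (adjusted p = 0.071), with HET AP-positive groups only (adjusted p = 0.11), and without any one of 9 libraries (adjusted p from 0.054 to 0.27). These were Brn3a HET P3 replicate 2, both Brn3b HET P3 replicates, Brn3b KO P3 replicate 2, replicate 1 of each Brn3b E15 AP-positive group, and the Brn3a KO P3, Brn3b KO P3 and Brn3b HET E15 SN libraries. Onecut2 passed without Brn3b HET P3 replicate 2 (-0.98, adjusted p = 0.040) or the Brn3b KO E15 SN library (-1.36, adjusted p = 0.032).

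Of the 6 SoxC targets at P3, 5 were higher in AP-positive cells and 1 was lower, with a list median of 0.52 against -0.03 for all genes, of which 27.3% were higher. Dcx, a microtubule protein of migrating young neurons, was higher by 1.62 ± 0.25 (adjusted p = 8.4e-05) and Tubb3 by 1.48 ± 0.21 (adjusted p = 5.1e-05). Tead2, a Hippo pathway factor of progenitors, was lower by 2.60 on the log2 scale (mean 28.4 against 122 CPM, adjusted p = 4.1e-07). At E15, 4 of 6 were higher, with Tubb3 at 1.66 ± 0.30. In the RGC fate list 12 of 15 genes were higher and 3 lower at P3, Pou4f2 higher by 3.87 ± 0.27. Pou4f1 and Pou4f2, both in this list, are the loci that carry AP, so their values are not independent of the capture. In the horizontal and amacrine list 7 of 11 were lower and 1 higher at P3, and 5 lower and 1 higher at E15, where 13% of all genes were lower, Prdm13 among them with -2.24 ± 0.24 at E15. Of 14 other Sox genes tested, 7 were lower and 2 higher at P3, with a median of -1.57, and Sox13 fell from a mean of 40.2 CPM in SN to 10.0 CPM in AP-positive cells. Progenitor and Mueller glia markers summed to 312 to 1924 CPM in AP-positive and 2270 to 3203 CPM in SN libraries at P3. Photoreceptor markers summed to 280 to 3505 CPM and 1888 to 2338 CPM. Microglia and macrophage markers, given above, were higher in every AP-positive library than in any SN library. The part of these lists in the SoxC differences was not tested.

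**Figure D4:**
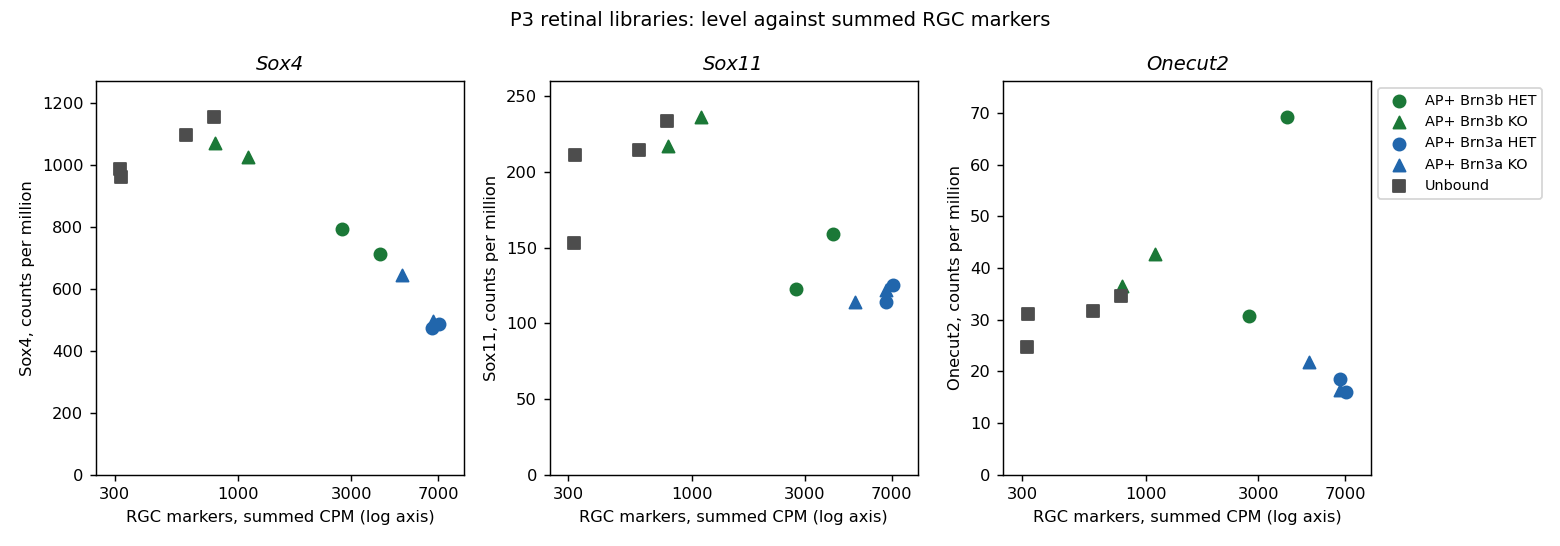
Sox4, Sox11 and Onecut2 (CPM) in the 12 P3 retinal libraries against the summed CPM of 10 RGC markers (log axis), with 1 symbol per library by group. Sox4 is high where RGC markers are low, in SN and Brn3b KO, and low in the Brn3a libraries, whereas Onecut2 is highest in a Brn3b HET library (69.2 CPM).

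In Brn3a KO at P3 none of the 6 genes passed. Sox4 had 489 and 474 CPM in HET and 496 and 645 CPM in KO, Sox11 126 and 114 CPM against 122 and 114 CPM, and Sox12 115 and 95.2 CPM against 118 and 92.3 CPM. Onecut1 had 5.23 and 7.15 CPM in HET and 3.23 and 4.80 CPM in KO, Onecut2 16.0 and 18.6 CPM against 16.5 and 21.8 CPM, and Onecut3 2.92 and 1.45 CPM against 0.64 and 2.48 CPM. Sox4 and Onecut1 did not overlap between genotypes, by narrow margins, and the 6 adjusted p were 1. The groups did not overlap for 30.9% of all genes. No member had an unadjusted p under 0.05, where 2.59% of genes did, DESeq2 called 0 of 6, and in this comparison 0.018% of 16673 genes passed. Pou4f1 itself was the only gene of the 6 pathway lists to pass.

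In Brn3b KO at P3 none of the 6 genes passed edgeR's test, although Sox4, Sox11 and Onecut1 had an unadjusted p under 0.05. Sox11 had 123 and 159 CPM in HET and 217 and 237 CPM in KO (log2 fold change 0.70 ± 0.17, adjusted p = 0.057), and Sox4 796 and 712 against 1073 and 1028 CPM (0.49 ± 0.17, adjusted p = 0.15). Onecut1 had 14.9 and 28.4 CPM in HET and 9.98 and 14.2 CPM in KO (-0.84 ± 0.34, adjusted p = 0.23). The genotypes did not overlap for these 3 genes, nor for Sox12 (119 and 115 against 149 and 123 CPM, adjusted p = 0.57), and did for Onecut2 and Onecut3 (adjusted p = 0.62 and 0.78). The groups did not overlap for 51.7% of all genes. With edgeR 3.41% of genes passed and 0 of 6 members, and 19.1% of genes and 3 members had an unadjusted p under 0.05. DESeq2 called Sox11 (0.73, adjusted p = 0.0024) and Sox4 (0.52, adjusted p = 0.046), and edgeR without the filter on low counts called Sox11 (adjusted p = 0.034). In Brn3b KO, Sox4 lay within the range of P3 SN (961 to 1157 CPM) and Sox11 at its upper end (153 to 234 CPM), and RGC markers were at 793 and 1096 CPM against 316 to 788 CPM in SN. The part of these marker levels in the differences was not tested.

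At E15, Sox4 had 1272 and 915 CPM in HET and 1759 and 1671 CPM in KO (0.65 ± 0.17, adjusted p = 0.11), and Onecut2 had 161 and 114 against 251 and 221 CPM (0.78 ± 0.32, adjusted p = 0.37). Neither gene overlapped between genotypes, as was so for 39.4% of all genes, and neither passed. Sox11 (901 and 677 against 814 and 893 CPM), Sox12 (194 and 158 against 224 and 162 CPM) and Onecut3 (19.8 and 11.5 against 24.6 and 11.1 CPM) overlapped, and Onecut1 (58.9 and 49.4 against 49.4 and 33.3 CPM) came as close as 49.4 CPM in both. The adjusted p of these 4 genes was 0.75 to 0.96. edgeR called 0 of 6 members and 1.85% of genes, and 2 members and 11.7% of genes had an unadjusted p under 0.05. DESeq2 called Sox4 (adjusted p = 0.010), as did edgeR without Brn3b HET E15 replicate 1 (0.94, adjusted p = 0.045), the library with the higher Sox4 level of the HET pair. In E15 SN the KO library had more of all 6 genes than the HET library, for example 149 against 77.3 CPM of Onecut2 and 1074 against 823 CPM of Sox4, with 1 library each and no test. The share of all genes higher in that KO library was not counted. These libraries also carry different replicate numbers, so genotype and library cannot be told apart.

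Tests of whether the Brn3b effect differed between ages gave 0 of 6 calls, where 0.192% of genes passed. Onecut2 had the largest value (-1.11 ± 0.46, P3 minus E15, adjusted p = 0.41), and Sox11 had 0.58 ± 0.24 (adjusted p = 0.41). Whether the KO effect differed between Brn3b and Brn3a at P3 also gave 0 of 6, where 0.012% of genes passed, with 0.71 ± 0.24 for Sox11 (adjusted p = 0.37). DESeq2 called none of the 6 in either test.

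Other genes of the pathway passed. In Brn3b KO at P3, 6 of 15 RGC fate genes were lower and 0 higher, where 3.15% of all genes were lower. Pou4f2, the targeted gene, is 1 of the 6 and of the 5 at E15. The others include Tbr1 with -2.46 ± 0.37 (adjusted p = 0.020) and Irx6 with -1.94 ± 0.35 (adjusted p = 0.024) at P3, and at E15 5 were lower, where 1.18% of all genes were, among them Eomes with -3.70 ± 0.37 and Irx6 with -3.97 ± 0.40 (adjusted p = 0.0022 for both). Slc32a1 rose at E15 from a mean of 1.47 to 44.4 CPM (4.92 ± 0.35, adjusted p = 0.00042), 1 of 2 horizontal and amacrine genes that did. Of all genes 0.666% were higher there. No SoxC target passed at either age. Dcx had -1.05 ± 0.33 at P3 (adjusted p = 0.12), and Plxna1 0.83 ± 0.23 at E15 (adjusted p = 0.14).

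Between Brn3b HET and Brn3a HET AP-positive cells at P3, 2 of the 3 Onecut genes passed and 0 of the 3 SoxC genes. Onecut1 was at 14.9 and 28.4 CPM in Brn3b HET and 5.23 and 7.15 CPM in Brn3a HET, 3.503-fold higher (1.81 ± 0.36, adjusted p = 0.032). Onecut2 was at 30.7 and 69.2 CPM against 16.0 and 18.6 CPM, 2.89-fold higher (1.53 ± 0.33, adjusted p = 0.041). Onecut3 had 3.95 and 9.75 against 2.92 and 1.45 CPM (1.65 ± 0.68, adjusted p = 0.15). Sox4 had 796 and 712 against 489 and 474 CPM (0.65 ± 0.17, adjusted p = 0.057), and passed with DESeq2 (adjusted p = 0.0090). Sox11 and Sox12 did not pass (adjusted p = 0.38 and 0.65). The 2 higher calls of 6 stand beside 2.03% of all genes called higher, and 1.82% were lower.

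Both Onecut calls were lost without either Brn3a HET replicate (adjusted p from 0.16 to 0.25) and without Brn3b HET replicate 2, the library with the highest level of all 3 Onecut genes at P3 (Onecut1 1.24, adjusted p = 0.090; Onecut2 0.80, adjusted p = 0.099). Both Brn3b HET libraries were above all 4 P3 SN libraries for Onecut1, and the share of all genes for which this holds was not counted. Summed markers of horizontal cells, amacrine cells, photoreceptors and progenitors were also higher in the Brn3b HET than in the Brn3a HET libraries. Microglia and macrophage markers, given above only as a range over AP-positive libraries, are not split by group here. RGC markers, given above, summed lower in the Brn3b HET libraries. Horizontal cell markers summed to 86.6 and 91.7 against 50.8 and 58.7 CPM (0 of 4 passed), with Prox1 at means of 76.9 and 40.5 CPM. Amacrine markers summed to 356 and 388 against 134 and 147 CPM (2 of 6 passed, both higher), with Tfap2b at means of 210 and 58.2 CPM. Photoreceptor markers summed to 1955 and 2873 against 705 and 742 CPM (0 of 6 passed), with Crx at 881 and 267 CPM, and progenitor and Mueller glia markers to 529 and 759 against 312 and 315 CPM (0 of 9 passed). Their part in the Onecut differences was not tested. Eomes, a T-box factor of intrinsically photosensitive ganglion cells, was at a mean of 83.4 CPM in Brn3b HET and 5.63 CPM in Brn3a HET (3.89 ± 0.38, adjusted p = 0.0020). Prdm13, a factor of amacrine genesis, was also higher (2.03 ± 0.35, adjusted p = 0.023), and 3 of 11 genes of its list were. Ebf2 was lower (-1.40 ± 0.25, adjusted p = 0.025). Of the SoxC targets only Tead2 passed (1.89 ± 0.44, adjusted p = 0.046), and the other 5 had negative values without passing. Satb1, another gene of the CUT class, was lower by 0.53 on the log2 scale (adjusted p = 0.040).

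In the brain at P3 the 3 Onecut genes were low and differed in pattern between regions. Onecut2 was highest in LGN, at 9.83, 14.4 and 10.6 CPM, against 5.11, 5.02 and 3.70 CPM in SC, 8.19 CPM in PTA and 5.52 and 7.11 CPM in the remaining brain. Onecut1 was highest in SC, at 3.67, 3.54 and 3.19 CPM, against 1.27, 0.885 and 0.657 CPM in LGN. Onecut3 had 1.45, 1.65 and 0.948 CPM in SC and 5 estimated counts in all over the 3 LGN libraries. All 4 SC markers were higher in SC than in LGN, with sums of 193 to 217 against 0.575 to 2.21 CPM. Of the LGN and thalamus markers, Gbx2, Tcf7l2 and Rora were lower in SC, and Lef1 did not pass (adjusted p = 0.79). Against the remaining brain, the SC markers Tfap2d and Pax7 were higher in SC, Barhl1 did not pass, and En2 was lower (-2.78 ± 0.52, adjusted p = 0.013).

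Between SC and LGN, Onecut2 was lower in SC by 1.33 on the log2 scale (SE 0.23, adjusted p = 0.0062). Onecut1 was higher in SC by 1.89 ± 0.52 (adjusted p = 0.048), Sox11 by 0.52 ± 0.14 (adjusted p = 0.040; 243, 245 and 256 against 165, 191 and 160 CPM) and Onecut3 by 3.20 ± 0.76 (adjusted p = 0.027), a fold that rests on the 5 LGN counts. None of the 4 overlapped between regions, as was so for 31% of all genes. Thus 3 of 6 were higher, where 4.41% of 15288 genes were, and 1 lower, where 5.78% were. Only the Onecut2 call was kept when any single library was left out. Sox11 and Onecut1 failed without each of the 6 libraries in turn (adjusted p up to 0.14 and 0.15), and Onecut3 without SC replicate 2 or 3 or LGN replicate 1 or 3 (adjusted p from 0.057 to 0.091). Sox4 did not pass, at 395, 410 and 452 CPM in SC and 434, 432 and 387 CPM in LGN (adjusted p = 0.98), and Sox12 had -0.26 ± 0.10 (adjusted p = 0.13).

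Against the remaining brain, Sox4 was higher in LGN by 0.39 ± 0.10 (adjusted p = 0.040; the remaining brain had 325 and 313 CPM) and Onecut3 lower by 3.89 on the log2 scale (SE 0.78, adjusted p = 0.012), the latter with 2.59 and 1.78 CPM in the remaining brain. These are 1 of 6 higher and 1 of 6 lower, beside 5.76% and 5.17% of genes. The Sox4 call was lost without LGN replicate 1 or 2 or either library of the remaining brain (adjusted p 0.11 to 0.12), and the Onecut3 call without remaining brain replicate 2 (adjusted p = 0.065). Onecut2 had 0.88 ± 0.26 (adjusted p = 0.060). For SC against the remaining brain 0 of 6 passed, where 6.94% of genes did, with 3 at an unadjusted p under 0.05, beside 21.5% of genes. Sox4 had 0.39 ± 0.10 there (adjusted p = 0.052) and was the 1 call by DESeq2 (adjusted p = 0.0036). In the same comparison Onecut1 had 1.29 ± 0.57 (adjusted p = 0.23) and Sox12 -0.28 ± 0.11 (adjusted p = 0.17). For LGN, Sox11 had -0.36 ± 0.15 (adjusted p = 0.16). Without remaining brain replicate 1, which leaves 1 library in that group, Onecut1 had 2.72 for SC and Sox11 -0.61 for LGN.

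**Figure D5:**
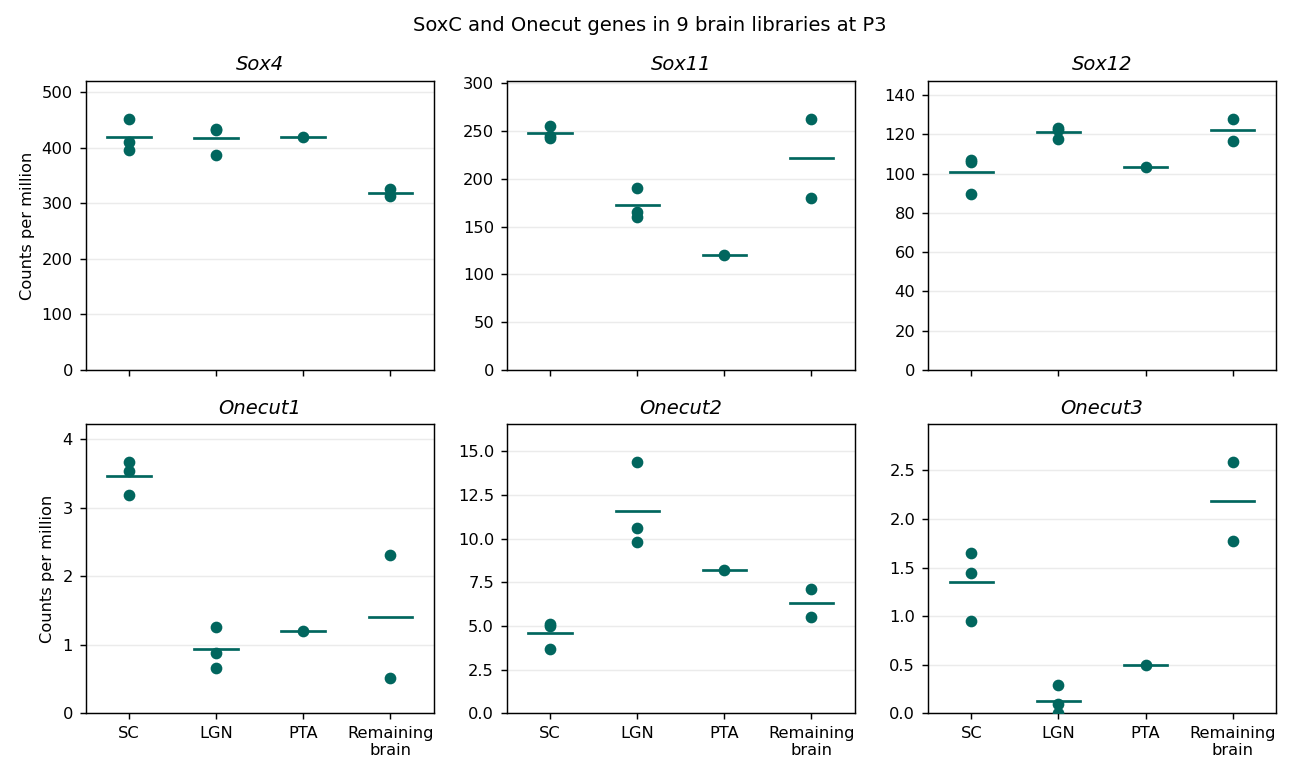
Level of each gene (CPM, linear axes from 0) in the 9 brain libraries at P3, 1 point per library and a line at the mean of each region. PTA has 1 library. Onecut2 is highest in the 3 LGN libraries (9.83 to 14.4 CPM), whereas Onecut1 is highest in SC and Onecut3 is near 0 in LGN.

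Larger differences between SC and LGN stood in the other lists. Tfap2b, an AP-2 factor, had a mean of 448 CPM in SC and 0.166 CPM in LGN, and Pou4f1 69.0 and 0.357 CPM (7.54 ± 0.34, adjusted p = 5.7e-06). Of 14 RGC fate genes tested, 7 were higher and 4 lower in SC. Tubb3 was the 1 SoxC target that differed, being lower in SC (-0.73 ± 0.11, adjusted p = 0.0021), and was higher in LGN than in the remaining brain (0.51 ± 0.12, adjusted p = 0.024) together with Plxna1 (0.55 ± 0.12, adjusted p = 0.017).

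Across the 18 retinal libraries Onecut1 and Onecut3 each had another Onecut gene as the gene most like them, and Onecut2 did not. Pearson's r of log2(CPM + 1) was 0.94 between Onecut1 and Onecut2, 0.95 between Onecut1 and Onecut3 and 0.92 between Onecut2 and Onecut3, and of 10259 genes averaging 10 CPM or more, Onecut1 was the one most like Onecut3. Onecut2 was most like Stra6 (0.97), Dlx1 (0.96) and Tle4 (0.95). Among genes at that level Onecut1 was most like Onecut2, Igf2bp3 (0.93) and Plekha5 (0.92). Onecut3, with a higher r to Onecut1, averaged under 10 CPM and was not among them. The SoxC genes were less alike, with r of 0.74 between Sox4 and Sox11, 0.76 between Sox4 and Sox12 and 0.74 between Sox11 and Sox12, and Sox11 was nearer to Onecut2 (0.94) than to either. Sox11 was most like H2afy2, Smarcb1 and Prmt1 (0.97 each), Sox4 most like Mex3b, Cyth2 and Csnk1d (0.95 to 0.96) and Sox12 most like Zfp647, Acly and Gas8 (0.93 to 0.94). These correlations describe libraries that share ages, fractions and scaling, and E15 and P3 form separate clusters for several of the genes.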

How the data were processed

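The authors deposited estimated counts (expected counts that need not be whole) for 88198 transcripts, made before deposit from their reads. The submitters' processing notes list Trimmomatic 0.32, Bowtie2 2.2.1, eXpress 1.3.1 and GRCm38.p3 without their roles. Libraries keep strand, per the labels' protocols. Groups follow the titles. Counts were summed per gene and rounded. Separate fits used the 12 AP-positive libraries (16673 genes), the 18 retinal libraries with SN pooled by age (16954) and the 9 brain libraries (15288), with edgeR 4.0.16 in R 4.3.3: TMM scaling, filterByExpr (minimum count 10), quasi-likelihood F-test and Benjamini-Hochberg adjustment over all genes tested. A call is an adjusted p under 0.05, and an adjusted p with no other tool named is edgeR's. All 6 genes passed the filter in each fit. SEs were derived from each log2 estimate and its F statistic. TPM used the deposited lengths. PTA was not tested. DESeq2 1.42.0 was an alternative. The fits were tested on simulated data. Members and gene lists were chosen with earlier results of these data known. Members with an unadjusted p under 0.05 are given with a log2 fold change, and the others are named or counted among the 6. Up to 4 genes of each list are named, by smallest adjusted p. Likeness names the 3 genes with the highest Pearson's r.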

Additional observations from a re-analysis of the deposited data

Results flagged for a closer look

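The difference between AP-positive and unbound cells was not the same at P3 and at E15 for 3 genes, by an interaction term fitted over the 18 retinal libraries. P3 minus E15, the log2 difference was -1.15 for Sox4, -0.78 for Sox11 and -0.66 for Sox12. Sox4 was 0.62 lower in AP-positive cells at P3 and 0.53 higher at E15. With Brn3b libraries alone, the only allele present at both ages, the 3 values kept their sign and none passed the test. Among the 4 P3 SN libraries no library of any of the 6 genes stood apart by Dixon's criterion.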

How the results depend on the processing

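The number of the 6 genes called was recomputed under each alternative. Without the filter on low counts, Brn3b KO against HET at P3 went from 0 to 1. DESeq2 gave 2 there, 1 (from 0) for Brn3b KO against HET at E15 and 1 (from 0) for SC against the remaining brain. With HET AP-positive groups only, and with only the compared groups, AP-positive against SN at E15 went from 2 to 0 in both cases. With only the compared groups, LGN against the remaining brain went from 2 to 1. Restriction to Brn3b libraries, chosen after seeing the data, gave 0 (from 2) for AP-positive against SN at P3, 1 (from 2) at E15 and 0 (from 3) for the difference between ages. Restriction to Brn3a libraries, chosen likewise, gave 3 at P3.

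Leaving out 1 library at a time gave 0 to 3 for AP-positive against SN at E15, 1 to 4 for its difference between ages, 0 to 1 for Brn3b KO at E15, 2 to 4 for P3 against E15 in Brn3b HET and 2 to 3 in Brn3b KO, 0 to 2 for Brn3b HET against Brn3a HET, 1 to 2 for SC against LGN, 0 to 1 for SC and 0 to 2 for LGN against the remaining brain. SN at P3 against E15 kept a count of 4 under every alternative run. Where a group was left with 1 library, that library is assumed to vary like the other groups.

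Of 47 values with an unadjusted p under 0.05, 0 changed sign in any of 566 alternative values, 68 of which no longer passed and 22 of which newly passed. Of 43 others, 30 changed sign in at least 1 alternative. TPM levels are in another unit than CPM, and all 24 called differences between groups had the same direction in TPM.

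Retinal replicate numbers showed no general pairing: deviations of same-numbered libraries correlated at -0.116 to 0.171 among AP-positive groups. The highest value was between Brn3b HET and KO at E15. At P3 it was 0.0948 between Brn3a HET and KO and -0.0132 between Brn3b HET and KO. Whether retinal libraries of 1 number share a preparation is not known. Brain titles share a number after the letter M, whose meaning the labels do not give. Same-numbered brain libraries correlated at -0.0235 to 0.218, with 4 of 7 pairs over 0.1 against 2 of 14 other pairs, and each SC and LGN library correlated best with its own number in the other region (0.0707 to 0.218). This is a hint from the data, and whether the numbers mark shared animals is not known. With a replicate block, 1 gene (Sox4, from 0) was called for SC against the remaining brain and 5 (from 4) for P3 against E15 in Brn3b KO. Onecut3 in LGN, with 5 estimated counts in all, is limited by depth.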
